A study of Mus musculus with 4 samples.

Results

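Osteoclasts formed on plastic were compared with the marrow macrophages from which they were grown, so the comparison spans the whole course of differentiation in the absence of mineral. It rests on 2 of the series' 4 expression arrays, 1 for each cell stage, and describes 18193 genes that a probe set names. Marrow from the long bones of C57BL/6 mice aged 8 to 10 weeks was kept with M-CSF at 100 ng/ml for 3 days, and the cells lifted from those cultures are the bone marrow macrophages (BMM). Part of them then received RANKL at 100 ng/ml beside M-CSF for 2 days and became mononuclear, TRAP-positive pre-osteoclasts (pOC). The osteoclasts of this comparison (mOCp) are multinucleated TRAP-positive cells that had a further 2 days of both cytokines on a plastic plate, while a parallel culture on dentin slices (mOCd) serves here only in the choice of probe sets and in a few side values. Macrophages grown for the same 4 days without RANKL were not analysed here, and so the effect of the cytokine and that of the longer culture cannot be told apart. The labels do not say whether the mice were pooled, and no group has a replicate, so no p-value or standard error exists for any difference below.

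M-CSF keeps cells of the macrophage line alive and dividing, and RANKL, which binds the receptor RANK, turns them into osteoclasts. RANK acts through TRAF6, NF-kappaB and the AP-1 factor c-Fos to raise NFATc1, the master transcription factor of the osteoclast. The mature cell fuses from many precursors, seals a patch of bone under a ring of podosomes, pumps acid into that patch with a vacuolar proton pump (V-ATPase), and digests the exposed collagen with cathepsin K and metalloproteinases.

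The values are linear signal intensities, brought by the submitters to the same trimmed mean on each array. Dim signals are imprecise, so values under the median probe set of an array, called the floor, 12.7 in BMM, 14.5 in pOC and 14.8 in mOCp, were raised to it before a ratio was taken. Intensities are printed as deposited. A gene is called higher or lower, and is said below to have risen or fallen, when its ratio was at least 2-fold and its brighter value reached the 75th percentile of its array, 87.0 in BMM and 77.8 in mOCp. Genes whose brighter value reached that percentile are the bright genes of the counts below. A fold written as "at least" has the dimmer array at the floor. Probe sets of the same gene disagreed by 0.479 on the log2 scale over 7553 pairs, the only guide to measurement error here, and 94.0% of 1577 called genes with a further measured probe set moved the same way on it. Every value so given is an intensity, and unless stated otherwise the 3 values given for a gene are those of BMM, pOC and mOCp in that order, and levels of different genes are not to be compared.

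Large parts of what was bright on at least 1 of the 2 arrays read differently in macrophages and osteoclasts. Of 7459 bright genes, 1258 were higher in mOCp (16.9%) and 1445 were lower (19.4%). The counts given below for each gene list are to be read beside these shares. At least 4-fold differences were counted for 495 genes upward (6.64%) and 539 downward (7.23%), and at least 8-fold differences for 231 (3.1%) and 183 (2.45%). At 16-fold the upward side was the longer one, with 105 genes against 51. The median log2 ratio of the bright genes was -0.06. The share of called genes that were higher, 46.5%, depends on how the arrays are scaled to each other: it became 34.9% after scaling to the array medians, which moves every log2 ratio by -0.22, and 32.9% after scaling to the spike-in controls, which moves it by -0.27, so changes are best read relative to the other genes. The 3' to 5' log2 ratios of the control transcripts, a sign of RNA quality, were alike on both arrays, at 0.16 and 0.20 for Actb, -0.43 and -0.29 for Gapdh and 1.00 and 0.84 for Tfrc.

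**Figure D1:**
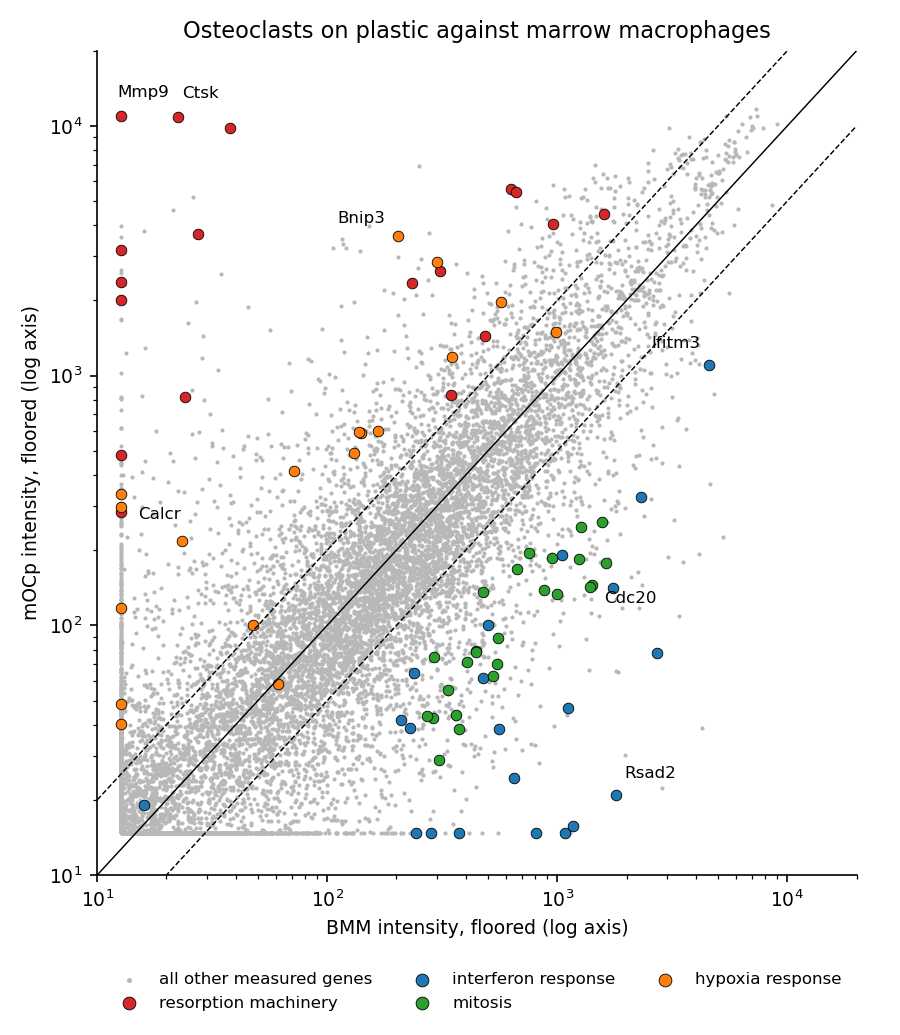
Floored intensity of each measured gene in mOCp (vertical, log axis) against BMM (horizontal, log axis), 1 point per gene and 1 array per axis, with the solid line at equal intensity and dashed lines at 2-fold. Resorption genes (red) and most hypoxia response genes (orange) lie above the lines, and mitosis genes (green) and all but 1 of the interferon response genes (blue) lie below them. Points on the left and bottom edges are at the floor of that array.

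Cell markers on both arrays matched the labels. Acp5, Ctsk, Mmp9, Calcr, Dcstamp, Ocstamp, Atp6v0d2, Itgb3, Oscar, Nfatc1 and Car2, which mark osteoclasts, were each higher in mOCp. Csf1r, the M-CSF receptor carried by both cell types, read 5816, 4899 and 7512 and was not called. Marker lists of B, T and NK, erythroid, endothelial, and stromal and osteoblast cells had no bright gene on either array, and Col1a1, Cd79a, Cd3e, Hba-a1, Pecam1, Flt3 and Kit were at the floor on both. The stromal gene Dcn, however, read 8.8, 196 and 55, with its pOC value above that array's 75th percentile of 81.5. Of the neutrophil genes, 4 of 5 bright markers were higher in mOCp, and the summed intensity of the 10 markers with a probe set was 450.4 in BMM, 985 in pOC and 2066 in mOCp. S100a8, a calcium-binding protein of neutrophil cytosol, read 146, 380.1 and 1113 and Lcn2, an iron-scavenging lipocalin of their granules, 8.4, 121 and 368. Ngp, also of the granules, read 44, 44.2 and 101. Camp, Ltf and Mpo were dim, at 13, 6 and 32.1, 12.9, 16.7 and 27.1, and 12.9, 29.4 and 24.2. The granule enzymes Elane and Prtn3 were at the floor in mOCp, though Elane read 41 in pOC. The part of such cells in the results was not tested. Of the megakaryocyte genes, Ppbp, a platelet chemokine, read 7.5, 42.1 and 99.9, and Pf4 was bright throughout at 2064, 1477 and 2370. The integrin chain Itgax, common to dendritic cells and macrophages, read 27.3, 34.3 and 91.5.

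Genes of the bone resorption machinery rose throughout. All 18 of 18 bright genes on that list were higher in mOCp, beside 16.9% of all bright genes, with a median log2 ratio of 4.79 and single values from 1.27 to 9.75. Ctsk, the collagen-cutting protease cathepsin K, showed 22.5 in BMM, 8026 in pOC and 10886 in mOCp, 484-fold higher. Acp5, which encodes the TRAP stain itself, read 37.6, 6675 and 9801 and was 261-fold higher. The gelatinase Mmp9 was at the floor in BMM and read 1.7, 6527 and 10971, at least 864-fold higher, and the membrane collagenase Mmp14 read 27.4, 2008 and 3684, 134-fold higher. For these proteases and for Acp5 the pOC value was already far above BMM, and mOCp was higher again by less than 2-fold. Fewer cells of a type and less RNA per cell cannot be told apart in such bulk samples, which holds for every result below.

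Genes that make and move acid shared the gain. Car2, the carbonic anhydrase that supplies protons, read 4.5, 1252 and 2015, at least 159-fold higher. Clcn7, the chloride-proton exchanger that balances the pump's charge, read 310.3, 963 and 2634 and was 8.49-fold higher, and its partner subunit Ostm1 read 486, 847 and 1435, 2.95-fold higher. Slc4a2, the exchanger that returns bicarbonate to the blood side, read 234, 1183 and 2348, 10.0-fold higher. Slc9b2, a sodium-proton exchanger, was at the floor in BMM and read 6.5, 1943 and 3194, at least 251-fold higher. Snx10 and Plekhm1, which carry vesicles to the ruffled border and are mutated in osteopetrosis, were 8.85-fold higher and 2.42-fold higher, and Rab38, a vesicle GTPase, read 24.1, 311 and 822, 34.1-fold higher. Calcr, the calcitonin receptor, differed from the proteases in timing: it was near the floor in pOC and read 1.8, 15.5 and 283, at least 22.3-fold higher. Oscar, a collagen receptor that co-stimulates RANK, read 4.8, 300.2 and 2363, at least 186-fold higher.

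Of the V-ATPase subunits, 14 of 17 bright genes were higher and 1 was lower, with a median of 1.86. The gain covered both sectors of the pump. In the membrane sector, Tcirg1, the a3 subunit that is sent to the ruffled border, read 962, 1944 and 4052, 4.21-fold higher, and Atp6v0d2, the osteoclast isoform of the d subunit, read 26, 4201 and 5184, 199-fold higher. Its ubiquitous counterpart Atp6v0d1 was 2.08-fold higher. In the catalytic sector, Atp6v1a and Atp6v1b2, which split ATP, were 4.08-fold higher and 4.32-fold higher, and the stalk subunit Atp6v1d was 7.19-fold higher. The other a isoforms did not follow: Atp6v0a1 read 199, 27.8 and 32.8 and was 6.08-fold lower, and Atp6v0a2 read 88, 109.7 and 89.8. Lysosomal genes in general were mixed, with 6 of 25 bright genes higher and 6 lower, beside 16.9% and 19.4% of all bright genes. The sign of their median depends on the probe set. Glb1, the lysosomal beta-galactosidase, read 260, 428 and 1773, 6.82-fold higher, and Hexa, a hexosaminidase subunit, was 2.90-fold higher. In contrast, Scarb2, the receptor that brings glucocerebrosidase to lysosomes, read 534, 84 and 78.1, 6.84-fold lower, the protease Lgmn was 4.16-fold lower, and the membrane proteins Lamp1 and Lamp2 were 2.66-fold lower and 2.49-fold lower. Other cathepsins differed among themselves. Ctsb, Ctsd and Ctsl, bright in macrophages, were not called. Ctsc read 4034, 911 and 1419.5 and was lower, with a log2 ratio of -1.51, and Ctsa was higher, with 1.23.

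Cell fusion genes moved both ways. The fusion receptors Dcstamp and Ocstamp, membrane proteins without which osteoclasts stay mononuclear, read 21.3, 2187 and 4619 and 3, 1947 and 3605, 217-fold higher and at least 284-fold higher. Sh3pxd2a, the podosome scaffold Tks5, read 194, 372 and 653, 3.36-fold higher. The tetraspanin Cd81 read 1524, 204 and 386 and was 3.95-fold lower, the ADAM protease Adam8 was 3.08-fold lower, and the ATP receptor P2rx7 was 2.75-fold lower. Cd47 and Cd44, surface proteins of both stages, were not called. Of 12 bright genes on the list, 4 rose and 3 fell, beside 16.9% and 19.4% of all bright genes.

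Genes of the podosome and sealing zone, the actin structures of attachment, were higher in 10 of 27 bright cases and lower in 5. Over all bright genes the shares were 16.9% and 19.4%. Cttn, the actin-branch stabiliser cortactin, was at the floor in BMM and read 10.1, 1528 and 2436, at least 192-fold higher. Scin, the actin-severing protein scinderin, read 13.4, 1128 and 1237, 92.3-fold higher. The kinase Src, needed for the ruffled border, read 4.4, 203 and 232, at least 18.3-fold higher, and Dock5, an exchange factor for Rac, read 55.1, 444 and 805, 14.6-fold higher. Vcl and Pxn, adhesion plaque proteins, were 4.34-fold higher and 2.75-fold higher. Among the genes that fell, Coro1a, a coat protein of leukocyte actin, read 3612, 504 and 612, 5.90-fold lower, Lpxn, leupaxin, read 1684, 451 and 184, 9.15-fold lower, and Evl was 4.97-fold lower. Core actin regulators shared by most cells, such as Arpc2, Cfl1, Cdc42 and Rac1, were not called. Among integrins, which grip the matrix, Itgb3, the beta chain of the vitronectin receptor, was at the floor in BMM and read 1, 92.1 and 481, at least 37.9-fold higher, and its partner Itgav read 1593, 3993 and 4421, 2.78-fold higher. Itgb5, which pairs with the same alpha chain, read 663, 109 and 114 and was 5.81-fold lower, and the laminin receptor chain Itga6 read 1806, 288 and 127, 14.2-fold lower.

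Transcription factors of the osteoclast rose by different amounts. Nfatc1 read 131, 2549 and 1972, 15.1-fold higher, and Jdp2, an AP-1 partner needed for osteoclasts, read 116, 3656 and 3537, 30.4-fold higher. Both read a little lower in mOCp than in pOC. Fosl2 read 194, 2031 and 2146, 11.1-fold higher, Fos 935, 3555 and 2473, 2.65-fold higher, and Spi1, which encodes the myeloid factor PU.1, 1005, 1776 and 2201, 2.19-fold higher. Prdm1, the repressor Blimp1 that silences osteoclast inhibitors, read 35, 856 and 608, 17.4-fold higher, and Ppargc1b, the coactivator of mitochondrial genes, read 27.8, 551 and 593, 21.3-fold higher. Mitf, which cooperates with PU.1, was high only in pOC, at 469, 1506 and 524, and so was not called over the whole course. Tnfrsf11a, the receptor RANK itself, read 187, 305 and 368, 1.97-fold higher and just short of a call. Nfatc2 read 248, 108 and 38.4 and was 6.45-fold lower. Over the list of RANK signalling and transcription factors, 10 of 23 bright genes were higher and 3 were lower.

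Factors listed as possible brakes on osteoclast formation were lower in 6 of 9 bright cases, beside 19.4% of all bright genes, and higher in 2, with a median of -1.17. Whether each of them, Cebpa included, acts as a brake in these cells was not tested. Irf8, the interferon regulatory factor that blocks NFATc1, read 678, 44.4 and 52.4, 12.9-fold lower. Cebpa, a factor of myeloid commitment, read 213, 48.5 and 33.1, 6.45-fold lower, the helix-loop-helix inhibitors Id2 and Id1 were 5.93-fold lower and 3.35-fold lower, and Bcl6 was 2.94-fold lower. The 2 that were higher are feedback inhibitors of NF-kappaB: Nfkbie read 109, 224 and 301 and Tnfaip3, the ubiquitin editor A20, 177, 596 and 531.

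The list of ITAM adaptors, their receptors and kinases, which lend RANK its calcium signal, had 2 of 15 bright genes higher and 4 lower, beside 16.9% and 19.4% of all bright genes. It does not hold Oscar, whose rise is given above. The adaptors Tyrobp (DAP12) and Fcer1g were bright on all 3 arrays, at 3949.5, 3183 and 5872 and 3531, 1645 and 2828, and were not called. Trem2, a receptor that signals through DAP12, read 1965, 288 and 296 and was 6.65-fold lower, and the linker Blnk was 2.88-fold lower. The kinase Syk, which the adaptors recruit, read 264, 444 and 805, 3.05-fold higher. Downstream, Rcan1 and Rcan2, regulators of calcineurin, were 3.81-fold higher and at least 11.9-fold higher, and Ank, which exports pyrophosphate, read 364, 2132 and 2799, 7.68-fold higher. The phosphate importer Slc20a1 was 2.98-fold lower.

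Osteoclasts also signal to bone-forming cells. Of the secreted or displayed factors proposed for that role, 6 of 11 bright genes were higher and 2 were lower. Over all bright genes the shares were 16.9% and 19.4%. Sphk1, which makes sphingosine 1-phosphate, was at the floor in BMM and read 8.6, 89 and 446, at least 35.1-fold higher. The cytokine Lif read 6, 89.4 and 192, at least 15.1-fold higher, the membrane ligand Efnb2 7.8, 13.9 and 117, at least 9.22-fold higher, and the growth factor Pdgfb 452, 628 and 1419, 3.14-fold higher. The semaphorin Sema4d, which restrains osteoblasts, was 2.10-fold higher. Igf1, a growth factor that macrophages also make, fell sharply to pOC and regained part of its level, at 3333, 185 and 676, 4.93-fold lower. Cthrc1, the secreted collagen triple helix repeat protein in the study's title, was at the floor in BMM and pOC and read 26.4 in mOCp, under the brightness criterion, so no call was made on plastic. On dentin it read 179.9.

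**Figure D2:**
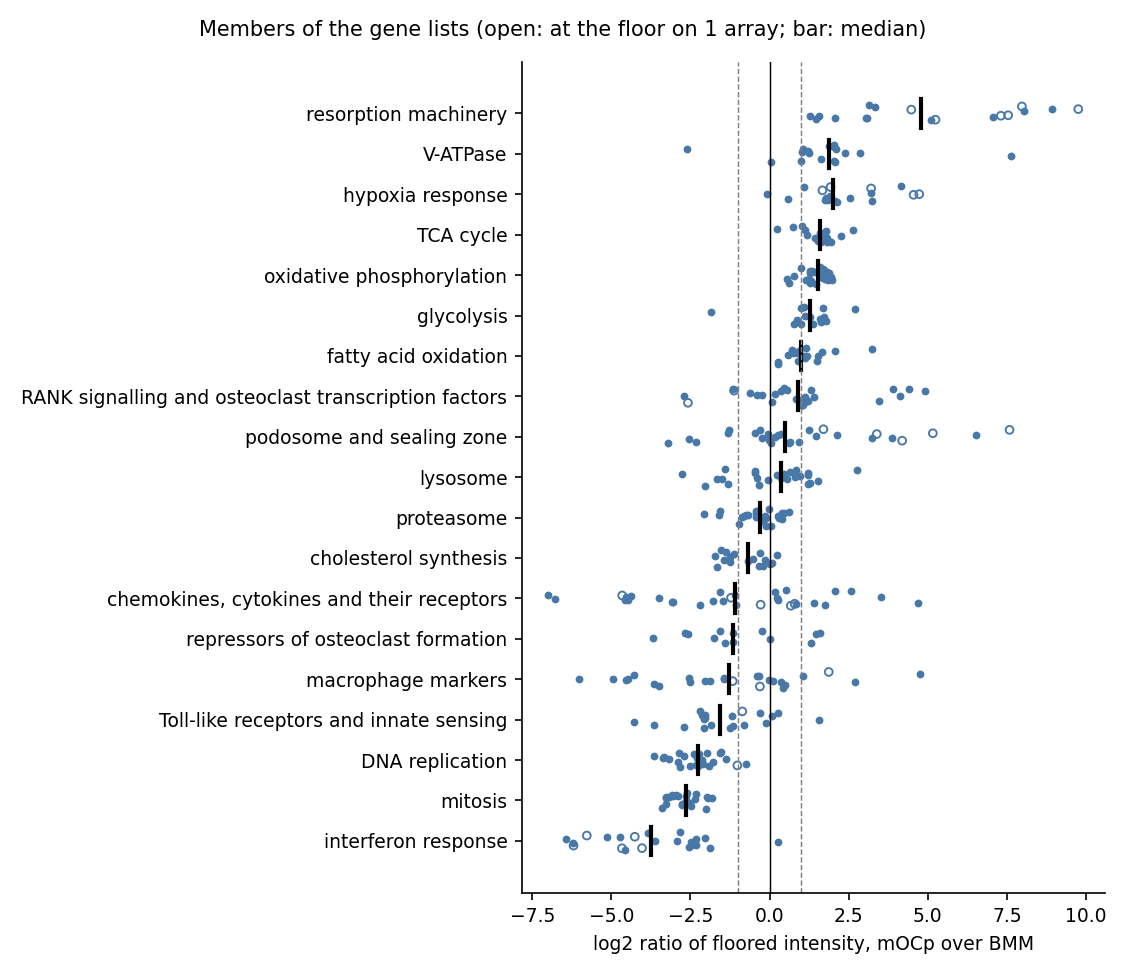
Log2 ratio of mOCp over BMM (horizontal) for each measured member of 19 gene lists (rows), with dashed lines at 2-fold and the black bar at the list's median. Open circles are ratios with 1 array at the floor. The resorption list has a median of 4.79 with every member to the right of the 2-fold line, and the interferon list a median of -3.74 with all but 1 member to the left of it.

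Several of the most raised genes have no place in the resorption apparatus. Saa3, an acute-phase apolipoprotein, showed 15.9 in BMM, 265 in pOC and 3779.6 in mOCp and was 238-fold higher, 16.6-fold to pOC and a further 14.3-fold after it. Mt3, a metallothionein, read 9.2, 372 and 3979, at least 313-fold higher, with a 10.7-fold step after pOC. Cpe, carboxypeptidase E, and Akr1c18, a steroid dehydrogenase, were at the floor in BMM and read 1.1, 381 and 2645 and 2.8, 308 and 2569.7, at least 208-fold higher and at least 202-fold higher. Bdh1, a ketone body dehydrogenase of mitochondria, read 34.7, 959.6 and 2549, 73.4-fold higher, and Coq8a, a kinase of coenzyme Q synthesis, read 15.7, 309 and 826, 52.6-fold higher. Bhlhe40, a transcriptional repressor linked to the clock, read 24.8, 871 and 1628, 65.7-fold higher. Edil3, a matrix ligand of the vitronectin receptor, read 28.9, 232 and 1438, 49.8-fold higher, and the proteoglycan Sdc1 read 45.2, 1349.9 and 1889, 41.8-fold higher. The cytochrome P450 Cyp2s1, the motor Myo1d and the receptor kinase Grk3 completed the 15 highest ratios among genes above both floors, at 79.5-fold higher, 73.7-fold higher and 41.3-fold higher. A further probe set of Myo1d gave a log2 ratio of 0.81 against 6.20 for the one used, and one of Coq8a gave 2.00 against 5.72.

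Macrophage markers fell unevenly. Of 22 bright markers, 13 were lower in mOCp and 3 were higher, with a median of -1.30. Fcgr1, the high-affinity IgG receptor, showed 1967 in BMM, 57 in pOC and 30.3 in mOCp and was 64.9-fold lower. The complement genes C1qa, C1qb and C1qc read 3372, 41.9 and 109, 4606, 147 and 369 and 3518, 85.4 and 180.1, 31-fold lower, 12.5-fold lower and 19.5-fold lower. Mrc1, the mannose receptor, read 770.2, 36.3 and 33.4, 23.1-fold lower, the lipid scavenger Cd36 4779, 466 and 842, 5.68-fold lower, and Cx3cr1, the fractalkine receptor, 700.4, 28.6 and 31.8, 22-fold lower. Other markers were lower in pOC and read higher again in mOCp, so that little or no net change was left. Adgre1, the F4/80 antigen, read 1582, 319.6 and 1191, Cybb, the oxidase subunit that makes superoxide, 2449.8, 877 and 2417, and Gas6, a ligand for uptake of dead cells, 739.8, 88.4 and 1072, and none of them was called. Cd14, the co-receptor for lipopolysaccharide, followed the same path at 3747, 409 and 1387 and stayed 2.70-fold lower. Still others were kept or raised: Lyz2, lysozyme, read 5947, 5684 and 8051 without a call, Cd68, a lysosomal glycoprotein, 4155, 5096 and 8623, 2.08-fold higher, and the scavenger receptor Marco, dim in BMM and pOC, 56.3, 35.8 and 1527, 27.1-fold higher.

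Sensors of microbes were mostly lower, 11 of 16 bright genes beside 1 higher, with a median of -1.56. Tlr7, which reads single-stranded RNA, showed 443 in BMM, 42 in pOC and 22.5 in mOCp, 19.7-fold lower, and Tlr13, which reads bacterial ribosomal RNA, read 1408, 109 and 112, 12.6-fold lower. Tlr2 and Tlr4, receptors for bacterial lipids, were 4.63-fold lower and 4.15-fold lower. The adaptor Myd88 was 2.25-fold lower, and the inflammasome genes Casp1, Pycard and Nlrp3 were 4.21-fold lower, 3.62-fold lower and 2.27-fold lower. The kinase Irak2 went against this, at 145, 169 and 429.7, 2.96-fold higher.

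Chemokines that call monocytes were among the deepest losses of the whole comparison. Ccl12 read 2844, 63.7 and 22.4 and was 127-fold lower, Ccl7 4255, 53.7 and 38.7, 110.0-fold lower, and Ccl2 5257, 232 and 225, 23.3-fold lower. Most of the loss of these 3 lay before pOC. Ccl4 and Ccl3 were 20.7-fold lower and 8.54-fold lower, and Cxcl14 was at least 25.2-fold lower. The cytokine Il18 read 389.9, 35.1 and 47.5, 8.21-fold lower, and Tnf 242, 44.5 and 86.3, 2.80-fold lower. Ccl9, a chemokine of myeloid cells and osteoclasts, was bright throughout at 4864, 6798 and 5862 and not called. On the raised side, Ccr1, a receptor for Ccl9, read 152, 2853 and 3962, 26-fold higher, Ccl5 27.1, 167 and 312, 11.5-fold higher, Il1b 23.4, 22.1 and 97.7, 4.18-fold higher, and its natural antagonist Il1rn 194, 399.8 and 518, 2.67-fold higher. Of 23 bright genes on the list, 14 were lower and 6 higher. Of the list of MHC class II and co-stimulation genes, 5 passed the brightness criterion, of which 2 were lower and none was higher. The class II chains H2-Aa and H2-Ab1 were a little above the criterion on 1 of the 2 arrays, at 98.4, 99.4 and 60.6 and 57.5, 64.4 and 95.2, and were not called. The co-stimulators Cd40 and Icosl were 4.39-fold lower and 7.09-fold lower.

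Genes of the interferon response fell throughout. All 21 of 21 bright genes were lower in mOCp, beside 19.4% of all bright genes, with a median of -3.74. Many of these genes carry a response element of paired GAAA half-sites near their start. Rsad2, the antiviral enzyme viperin, showed 1809 in BMM, 109 in pOC and 21 in mOCp, 86.1-fold lower. Ifit2 and Ifit3, which bind viral RNA, ended at the floor and read 1085, 36.1 and 5.8 and 811, 65.3 and 11.3, at least 73.3-fold lower and at least 54.8-fold lower. Oasl2 read 1166, 199 and 15.7, 74.2-fold lower, and the interferon brake Usp18 651, 155 and 24.4, 26.7-fold lower. The response factors were reduced too, with Irf7 at 474, 270 and 61.8, 7.67-fold lower, and Stat2 and Irf9 5.01-fold lower and 5.63-fold lower. Some members changed by less than 2-fold to pOC and lost most of their level after it. Ifitm3, a membrane barrier to virus entry, read 4562, 4820.1 and 1104, 4.13-fold lower, Oas1a 1739, 1326 and 141, 12.4-fold lower, and Rtp4 2700.4, 1667 and 77.2, 35-fold lower. Mx2 was too dim for a call, at 15.9, 2.8 and 19.1. The inducible subunits of the immunoproteasome, Psmb8, Psmb9 and Psmb10, were 3.04-fold lower, 2.94-fold lower and 4.19-fold lower, and no other proteasome gene was called among 28 bright ones.

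The promoters of 2 of these genes are shown because they hold the element and their intensities fell to or near the floor. They run from 250 bases before to 50 after the start of transcription in RefSeq on GRCm38.p6, 5′ to 3′ along the gene's strand, with matches to the element's core, GAAA followed by any 2 bases and GAAA again, in capitals on either strand. Rsad2 lies on the minus strand at chr12:26456403-26456702, with a match that begins at -120 from the start:
Rsad2: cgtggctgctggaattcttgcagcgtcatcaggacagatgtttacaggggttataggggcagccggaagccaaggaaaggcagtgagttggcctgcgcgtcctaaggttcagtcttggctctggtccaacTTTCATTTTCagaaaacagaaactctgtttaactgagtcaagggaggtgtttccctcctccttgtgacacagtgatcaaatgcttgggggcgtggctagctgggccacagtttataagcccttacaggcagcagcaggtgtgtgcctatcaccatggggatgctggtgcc
Ifit3 lies on the plus strand at chr19:34583279-34583578, with matches that begin at -156 and -122:
Ifit3: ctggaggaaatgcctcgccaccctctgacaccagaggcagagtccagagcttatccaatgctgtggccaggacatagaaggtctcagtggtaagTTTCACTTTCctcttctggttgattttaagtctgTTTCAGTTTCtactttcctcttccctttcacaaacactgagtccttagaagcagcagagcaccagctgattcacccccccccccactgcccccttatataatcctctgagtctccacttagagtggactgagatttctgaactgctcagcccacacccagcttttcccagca
Of 17 list members with a promoter in the table, 11 held the letters, and 3.90% of the 6162 bright genes with one did. Among 434 genes at least 4-fold lower, 11.5% held them, and among 384 at least 4-fold higher, 3.65%. A match is a description of the sequence and not evidence of binding, and 3.44% of all 32851 promoters in the table hold one. That share counts each start site once, whereas a gene counted as holding the letters when any of its start sites did. The same difference applies to the words searched below.

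Genes of cell division fell together. All 24 of 24 bright mitosis genes were lower in mOCp, with a median of -2.65, and so were 22 of 23 bright DNA replication genes, with a median of -2.27. Mitosis genes kept most of their level in pOC. Cdc20, which starts chromosome separation, showed 1415 in BMM, 1374 in pOC and 145 in mOCp, 9.73-fold lower. Top2a, the topoisomerase that untangles chromosomes, read 1382, 848 and 143, 9.70-fold lower, the proliferation antigen Mki67 1622, 1062 and 178, 9.10-fold lower, and Ube2c, which marks cyclins for destruction, 1572, 1938 and 258, 6.08-fold lower. Over the list, the median log2 ratio was -0.40 from BMM to pOC and -2.28 from pOC to mOCp. Replication genes started down earlier, with medians of -0.73 and -1.76. Mcm5, part of the replicative helicase, read 1644, 989 and 220.3, 7.46-fold lower, Pola1, the polymerase that primes DNA strands, 341, 167 and 27.4, 12.4-fold lower, and Uhrf1, which keeps DNA methylation through division, 959, 399.6 and 92.1, 10.4-fold lower. Mcm2 read 469.9, 237 and 119, and Pcna, the polymerase clamp, stayed bright at 5589.8, 3391 and 2152, 2.60-fold lower. The licensing factor Cdt1 was the bright replication gene without a call, at 2031, 1973 and 1205.

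Many mitosis genes are silenced in resting cells through the CHR element, TTTGAA, close to the start. Promoters of 2 genes that dropped after pOC are shown with those letters on either strand in capitals. Cdc20 lies on the minus strand at chr4:118437294-118437593, with a match at -18:
Cdc20: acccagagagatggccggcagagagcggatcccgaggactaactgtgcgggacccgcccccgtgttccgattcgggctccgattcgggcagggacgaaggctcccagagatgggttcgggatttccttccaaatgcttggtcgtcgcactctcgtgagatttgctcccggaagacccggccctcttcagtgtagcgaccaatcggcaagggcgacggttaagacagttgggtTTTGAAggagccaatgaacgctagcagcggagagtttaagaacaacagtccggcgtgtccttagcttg
Top2a lies on the minus strand at chr11:99024140-99024439, with matches at -179 and -23:
Top2a: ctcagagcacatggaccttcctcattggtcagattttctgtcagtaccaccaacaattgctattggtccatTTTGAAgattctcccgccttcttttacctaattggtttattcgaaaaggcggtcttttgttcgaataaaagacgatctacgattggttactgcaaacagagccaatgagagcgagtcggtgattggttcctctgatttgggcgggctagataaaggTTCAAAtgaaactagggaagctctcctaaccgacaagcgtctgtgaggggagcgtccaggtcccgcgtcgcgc
Of 20 mitosis genes with a promoter in the table, 15 held TTTGAA, beside 14.2% of bright genes, 28.1% of genes at least 4-fold lower and 9.38% of genes at least 4-fold higher. It is a short word that 17.9% of all promoters hold.

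Energy metabolism rose as a block. Of 26 bright genes of oxidative phosphorylation, 23 were higher and none was lower, with a median of 1.53 and a narrow range from 0.55 to 1.96. Uqcrfs1, the iron-sulfur protein of complex III, showed 959 in BMM, 2992 in pOC and 3741 in mOCp, 3.90-fold higher. Ndufs1 and Ndufs3 of complex I read 413, 1087 and 1439.7 and 626, 1643 and 2313, 3.49-fold higher and 3.70-fold higher, Sdha of complex II 1149, 2543 and 4406, 3.84-fold higher, and Atp5o of the ATP synthase 1669.5, 3430.3 and 5657, 3.39-fold higher. Cox5a of complex IV and Cycs, cytochrome c, which were bright in BMM, were 1.46-fold higher and 1.54-fold higher and not called. Enzymes of the TCA cycle went along, 15 of 17 bright genes higher with a median of 1.61. Pdhb, which feeds pyruvate into the cycle, read 806, 3219 and 5023, 6.23-fold higher, Mdh1 1084, 2383 and 5178, 4.78-fold higher, and Ogdh 382, 676 and 1322, 3.46-fold higher. Of fatty acid oxidation, 9 of 17 bright genes were higher, led by the thiolase Acaa2 at 217, 713 and 2037, 9.40-fold higher. Mitochondrial ribosomal proteins took another course: their median was 0.72 from BMM to pOC and -0.55 after it, and 3 of 24 were called over the whole course. Mrpl12 read 826, 1938 and 1221, and Mrps35 was the clearest of the raised genes at 131, 699 and 717, 5.48-fold higher.

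**Figure D3:**
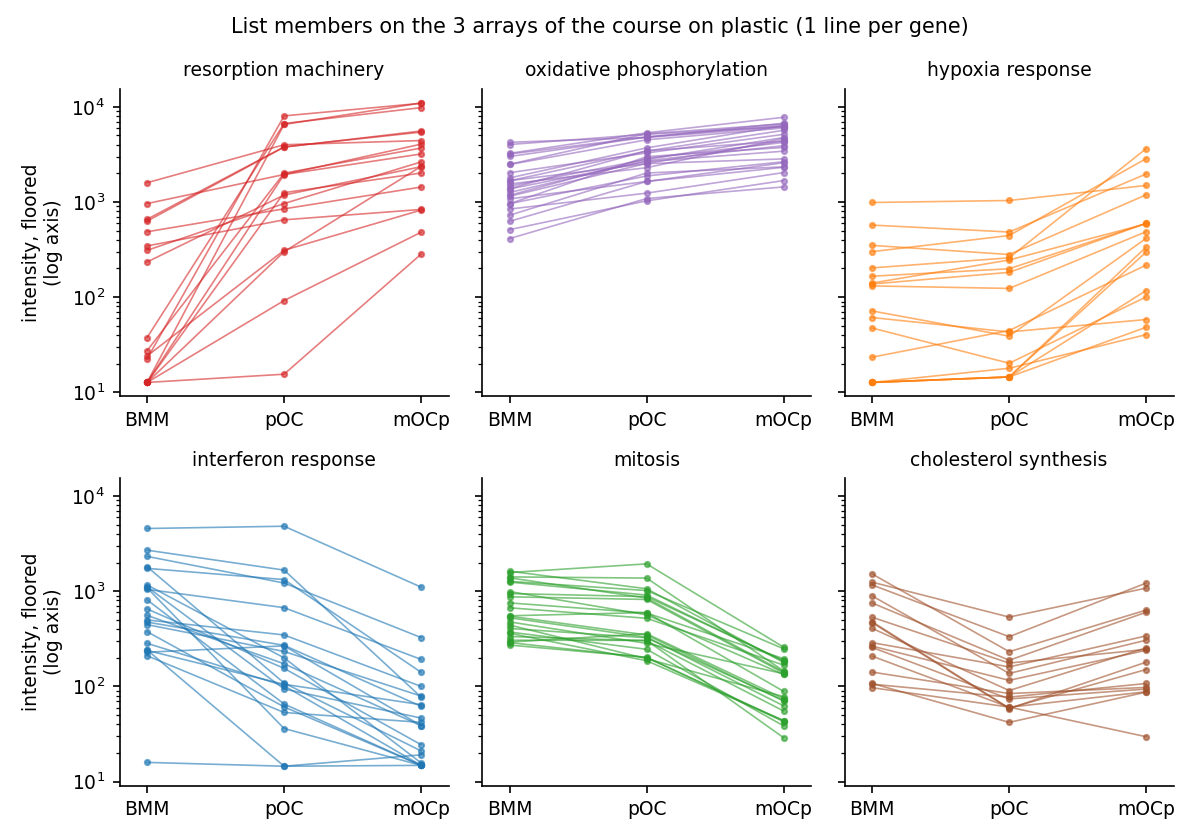
Floored intensity (vertical, log axis) of each member of 6 gene lists in BMM, pOC and mOCp (horizontal), 1 line per gene and 1 array per stage. Oxidative phosphorylation rises at both steps, with Uqcrfs1 at 959, 2992 and 3741, while hypoxia genes rise after pOC, mitosis genes fall after it and cholesterol synthesis genes dip in it.

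Glycolysis rose later than respiration. Of 15 bright genes, 10 were higher and 1 was lower, with a median of 0.24 from BMM to pOC and 0.93 from pOC to mOCp. The glucose transporter Slc2a1 showed 572 in BMM, 484 in pOC and 1969.6 in mOCp, 3.45-fold higher. Pfkl, a phosphofructokinase, read 195, 254 and 1254, 6.44-fold higher, Ldha, lactate dehydrogenase, 2614, 4665 and 8003, 3.06-fold higher, and the lactate exporter Slc16a3 59.8, 49 and 191, 3.20-fold higher. Hk3, the hexokinase of leukocytes, was the one that fell, at 765, 241 and 214, 3.57-fold lower. Hypoxia response genes, targets of the factor HIF, were later still, with 14 of 15 bright genes higher and medians of 0.19 and 2.06. Ak4, a mitochondrial adenylate kinase, was at the floor in BMM and pOC and read 1.2, 1.6 and 337, at least 26.5-fold higher. Bnip3, which marks mitochondria for removal, read 203, 259 and 3638, 17.9-fold higher, Ero1a, an oxidase of protein folding, 301, 444 and 2857, 9.50-fold higher, and the oxygen-sensing hydroxylase Egln3 0.3, 11.4 and 298, at least 23.4-fold higher. Vegfa, the vessel growth factor, read 23.4, 44.6 and 217, 9.28-fold higher, and Pdk1, which shuts pyruvate out of the TCA cycle, 350, 281 and 1190.3, 3.40-fold higher. Car9 was dim and not called, at 61.1, 43.1 and 58.2.

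HIF binds the core ACGTGC, and the promoters of 2 genes whose gain lay after pOC are shown with those letters on either strand in capitals. Ak4 lies on the plus strand at chr4:101419453-101419752, 1 of 4 start sites in the table and picked among those that hold the letters, with a match at -213:
Ak4: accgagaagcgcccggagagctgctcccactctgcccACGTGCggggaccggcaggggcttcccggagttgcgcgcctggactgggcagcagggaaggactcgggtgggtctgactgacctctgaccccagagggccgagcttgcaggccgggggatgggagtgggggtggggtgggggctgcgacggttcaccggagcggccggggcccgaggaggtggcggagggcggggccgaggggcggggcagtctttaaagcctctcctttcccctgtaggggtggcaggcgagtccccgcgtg
Bnip3 lies on the minus strand at chr7:138909457-138909756, with overlapping matches on both strands at -109 and -107:
Bnip3: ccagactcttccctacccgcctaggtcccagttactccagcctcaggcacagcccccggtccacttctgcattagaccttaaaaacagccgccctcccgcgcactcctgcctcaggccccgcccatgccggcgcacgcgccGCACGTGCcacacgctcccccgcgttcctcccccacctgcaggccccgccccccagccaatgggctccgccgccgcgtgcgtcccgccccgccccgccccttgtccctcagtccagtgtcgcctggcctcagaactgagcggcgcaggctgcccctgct
The letters were found in 11 of 17 hypoxia genes with a promoter, beside 9.90% of bright genes, 10.7% of genes at least 4-fold higher and 6.22% of genes at least 4-fold lower. In all promoters of the table the share was 5.92%. For the resorption list the AP-1 word TGANTCA was found in 2 of 14 promoters and 6.01% of bright genes, and for the V-ATPase list the CLEAR core TCACGTGA in 3 of 11 and 2.60%, both searched on either strand.

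Cholesterol synthesis dipped and partly came back. The median of its genes was -1.78 from BMM to pOC and 1.06 from pOC to mOCp, which left 8 of 17 bright genes lower and none higher over the whole course. Fdps, which makes farnesyl diphosphate, showed 1519 in BMM, 232 in pOC and 634 in mOCp, 2.40-fold lower. Idi1 read 892, 137 and 306, 2.92-fold lower, and Fdft1, the first committed enzyme towards sterols, 478, 59.1 and 151, 3.17-fold lower. For Fdft1 the mean over its probe sets gave a log2 ratio of 0.32, against -1.67 for the probe set used. A further bright probe set fell alike, with -1.56. A rise was read on a dim probe set at the floor in BMM, which gave 1.5, 8.4 and 27.8. The direction under the mean thus differs from that of the bright probe sets. Hmgcs1 and Msmo1 came back to about their first level, at 1245, 535 and 1079 and 1164, 333 and 1218. Among genes of cholesterol efflux, Apoe read 1555, 193 and 1053 without a call, and Ch25h, which makes 25-hydroxycholesterol and is itself induced by interferon, fell to the floor at 1137, 16.9 and 2.9, at least 76.8-fold lower.

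Genes of protein synthesis and folding differed from list to list. Each count here stands beside 16.9% higher and 19.4% lower over all bright genes. No gene among 16 bright cytosolic ribosomal proteins was called. Of 19 bright chaperones of the endoplasmic reticulum, 5 were lower, Creld2 the most at 505, 478 and 138, 3.65-fold lower, and none was higher. Among tRNA synthetases and targets of ATF4, 6 of 23 bright genes were higher, including Asns, which makes asparagine, at 229, 634 and 719, 3.14-fold higher, and 2 were lower: the serine enzyme Psat1, 3.28-fold lower, and the amino acid carrier Slc7a5, 4.28-fold lower. Of 13 bright genes of iron and heme, 4 were higher and 3 were lower. Tfrc, the transferrin receptor, read 957, 3398 and 5819, 6.08-fold higher, the ion carrier Slc11a2 was 4.57-fold higher, the metalloreductase Steap4 at least 22.8-fold higher and Ncoa4, which sends ferritin for breakdown, 3.34-fold higher. Slc40a1, the iron exporter, read 382, 50.9 and 52.7, 7.24-fold lower, Hfe, a partner of the transferrin receptor, was 10.6-fold lower, and the phagosomal metal carrier Slc11a1 2.11-fold lower. Of 16 bright genes of the antioxidant response, 3 were higher and 1 was lower. The mitochondrial superoxide dismutase Sod2 read 857, 1771 and 3543, 4.13-fold higher, and the glutathione reductase Gsr was 3.25-fold higher. The heme oxygenase Hmox1 dipped in pOC, at 1192, 395 and 2115, and was not called.

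Genes of cell death moved both ways, with 5 of 16 bright genes higher and 5 lower, beside 16.9% and 19.4% of all bright genes. Of those that guard against death, Bcl2l1, which encodes Bcl-xL, read 259, 58.6 and 48, 5.40-fold lower, Bcl2 146, 32.1 and 59.9, 2.44-fold lower, and Mcl1 2042, 2082 and 4404, 2.16-fold higher. Of those that promote it, Pmaip1 (Noxa), which binds Mcl1, read 93.3, 71.5 and 952, 10.2-fold higher, Bid 594, 199.9 and 107, 5.55-fold lower, and the apoptosome scaffold Apaf1 241, 118 and 114, 2.10-fold lower.

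The 2 steps that make up the course differ in what they carry. From BMM to pOC, 809 of 7256 bright genes rose (11.1%) and 956 fell (13.2%), and from pOC to mOCp 633 of 7192 rose (8.8%) and 820 fell (11.4%). These comparisons share the pOC array, and each shares an array with the net one, so their values are only set side by side. The resorption list had medians of 2.72 and 0.76, the macrophage list -1.96 and 0.67, and the interferon list -1.33 and -2.08. A slow drift below 2-fold at each step added up to a call in 317 genes upward and 276 downward, which neither step alone would show. Among the largest of these upward were Use1, a SNARE of the endoplasmic reticulum, at 518, 1004 and 1929, 3.73-fold higher, and Pgrmc1, a heme-binding membrane protein, at 724, 1262 and 2509.9, 3.47-fold higher. Auh, an RNA-binding enzyme of leucine breakdown, read 93.2, 178 and 354, but its 3 further probe sets gave log2 ratios from -0.57 to 0.77 against 1.92. Downward, Lsm7, of the spliceosome, read 402, 211 and 111, 3.62-fold lower, and the mitochondrial glutamate carrier Slc25a22 164, 86.8 and 45.4, 3.61-fold lower.

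**Figure D4:**
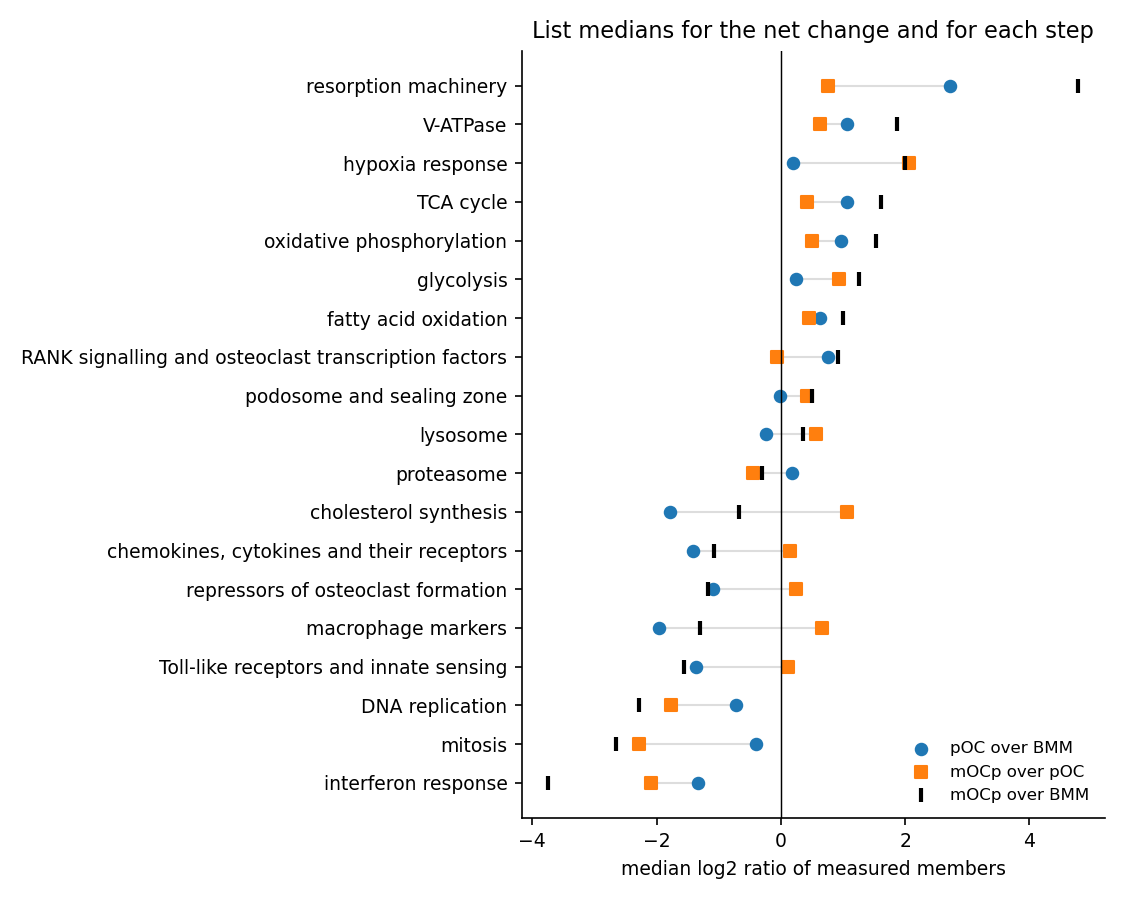
Median log2 ratio of the measured members of 19 gene lists (rows) for pOC over BMM (blue circles), mOCp over pOC (orange squares) and mOCp over BMM (black bars). The resorption list gained mostly before pOC, 2.72 against 0.76, the hypoxia list after it, 0.19 against 2.06, and cholesterol synthesis and macrophage markers changed direction between the steps.

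Part of the transcriptome read alike at both ends of the course. Within 1.1-fold of each other were 829 of the 7459 bright genes. Outside the lists, the brightest of them were Efhd2, a calcium-binding actin protein, at 4958, 5063 and 5208, the ribosomal protein gene Rps20 at 5133, 4956 and 4922, the translation factor Eif5a at 4916, 5202 and 4773, the traffic GTPase Rab1a at 4561, 3665 and 4393, the membrane protein Plp2 at 4201, 3263 and 3899 and Tomm20, the receptor for import into mitochondria, at 3826, 4512 and 3822. Rab1a and Plp2 read lowest in pOC and Tomm20 highest, each by less than 2-fold. Of the Rab and vesicle traffic list, 3 of 19 bright genes were higher and 1 was lower, beside 16.9% and 19.4% of all. Rab7, the late endosome GTPase that works at the ruffled border, read 1866, 2178 and 2897 and was not called.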

How the data were processed

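Expression was measured on 1 single-channel array for each of 4 cell stages, of the Affymetrix kind to judge by the probe set names. Linear signal intensities were deposited, made with MAS5 per the submitters' processing notes. Its version and a genome build were not given in the sources used here. Each deposited array had a mean of 100.0 after 2% was trimmed from either end, a scaling that removes any difference in total mRNA. Raw scanner files and detection calls were not used here.

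Of 45101 probe sets, 64 were controls, 34945 carried 1 gene symbol in a platform annotation dated 2016, 932 carried several and 9160 were unlisted. Each gene was read from the single-symbol probe set with the highest mean floored log2 intensity over the 4 arrays. Calls follow size alone, at least 2-fold on floored values with the brighter one at or above the 75th percentile. The floor is the 50th percentile of non-control probe sets. Probe-set disagreement is the SD of differences in log2 ratio divided by the square root of 2. The counting was tested on simulated data with large planted changes and noise smaller than the probe-set disagreement. That test does not bear on how reliable calls near 2-fold are. Promoters came from a RefSeq table of GRCm38.p6.

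Named genes are the 15 highest and 15 lowest ratios above both floors, the 8 brightest on each side at the floor on the other array, members of 42 gene lists, Cthrc1, the 6 largest of each direction with both steps under 2-fold, and the 6 brightest within 1.1-fold. Members, lists and comparisons were chosen with earlier results of these data known. Alternatives varied the floor, the brightness criterion, the scaling and the probe set. Python 3.11.15, pandas 2.3.3 and numpy 2.4.6 were used, with R 4.3.3 and limma 3.58.1 for quantile and cyclic loess normalization.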

Additional observations from a re-analysis of the deposited data

How the results depend on the processing

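With 1 array per group the only error guide is the disagreement between probe sets, dim signals have only bounds, and no result has a test. The calls moved most with the brightness criterion: at the 90th percentile 717 genes were higher and 665 lower, and at the 60th 1804 and 1862. Over the other alternatives run the counts ran from 957 to 1307 higher and from 1039 to 1956 lower. Scaling to the spike-in controls gave 957 and 1956. It moves every log2 ratio by -0.27, so those 957 lie within the 1258 by construction. Of 417 list medians recomputed, 405 moved by less than the probe-set disagreement. The resorption median was 3.9363 with the floor at the 60th percentile, 4.2278 with no floor and a pseudocount of 16, and 5.5796 without suffixed probe sets. The V-ATPase median was 1.3681 under cyclic loess. Cytosolic ribosomal proteins went to -0.1576 under quantile normalization and -0.2443 under cyclic loess. Without suffixed probe sets the lysosome median was -0.3789 and that of MHC class II -0.7715. The dendritic and mast cell median was 0.2507 with the floor at the 40th percentile and 1.7449 with the floor at the 60th or with the mean over probe sets, which also put the stromal median at 0.9361. The medians for cell fusion, Rab traffic, calcium handling, iron, integrins, apoptosis, mitochondrial ribosome and endoplasmic reticulum chaperones changed sign under at least 1 alternative. So did those for lysosome, cytosolic ribosome, B cell markers and stromal markers. No direction of the net median is drawn for any of these lists. Of 236 genes recomputed, 2 that were called reversed, Fdft1 at 0.3154 with the mean over probe sets and Auh at -0.5668 without suffixed probe sets. The causes were not tested. No paired analysis was possible because each group has a single array.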

Other observations

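Other deep losses fell outside the gene lists. Rgs1 and Rgs18, which switch off G protein signals of chemokine receptors, read 831, 26.1 and 28 and 965, 28.2 and 39.5 in BMM, pOC and mOCp, 29.7-fold lower and 24.4-fold lower. Ly86 (MD-1), the partner of the Toll-like receptor homologue Cd180, read 1836, 65.5 and 65.1, 28.2-fold lower, and the membrane lectin-like protein Cd93 1798, 52.7 and 65.4, 27.5-fold lower, although its further probe sets ranged from -5.45 to -0.55 on the log2 scale. Il7r, the interleukin-7 receptor chain, read 1103, 113 and 43.7, 25.2-fold lower, and Ctla2b, a relative of cathepsin propeptides, 803, 11.6 and 33.3, 24.1-fold lower. Gatm, which starts creatine synthesis, the secreted protein Olfml3 and the mitochondrial nucleotide kinase Cmpk2 ended at the floor, at 473, 24.8 and 10.5, 412, 69.9 and 3.1 and 551, 55 and 1, at least 32-fold lower, at least 27.9-fold lower and at least 37.2-fold lower. Most of this loss was already present in pOC. After it, Il7r fell a further 2.58-fold, Cmpk2 at least 3.72-fold and Olfml3 at least 4.72-fold.

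Among 9160 that the annotation does not list, 564 were bright, of which 108 were higher (19.1%) and 149 lower (26.4%) in mOCp, beside 17.2% and 19.6% of the bright probe sets with a single symbol. The probe set 1448990_a_at read 4.7 in BMM, 404.9 in pOC and 986 in mOCp, and 1427450_x_at 4.8, 404.1 and 830.1. In the other direction, 1422259_a_at read 371.8, 23.4 and 21.4, and 1439616_at 570.0, 73.5 and 36.6. Of the called named genes, 34 higher and 28 lower ones carry only clone or model names and were not named. Where a gene had at least 2 called probe sets, 4 of 935 genes had calls in opposite directions (0.428%): Cds2, Ero1b, Hbs1l and Nisch, which were singled out after their values were seen. For Ero1b, the beta form of the folding oxidase, the log2 ratios ran from -1.94 to 3.35.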
